A study of Mus musculus with 6 samples.

Results

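The immediate early response genes were followed in colonic tissue of DSS-treated mice with and without epithelial *Nedd4l*. They were taken by name as 10 genes, *Fos*, *Fosb*, *Jun*, *Junb*, *Egr1*, *Atf3*, *Nr4a1*, *Ier2*, *Ier3* and *Dusp1*, out of 27202 genes in the table, and all 10 passed the filter on low values that left 16246 genes for testing. RNA came from the colon of 3 mice of the genotype Nedd4l fl/fl Villin Cre, called knockout here, and 3 Nedd4l fl/fl littermates, called control. Every animal was 8 to 10 weeks old and was given 2% DSS (dextran sulfate sodium), which damages the lining of the colon. The time recorded for the samples is 7 days, and the paper places the sequenced tissue on the 7th day. In another 2% DSS experiment of the paper water followed DSS, so the days spent drinking DSS are not certain. No mice without DSS were among these libraries, so each comparison is between genotypes within colitis. Both genotypes carry the floxed allele. Cre under the Villin promoter acts in intestinal epithelial cells, whereas the libraries hold all cells of the tissue, so fewer cells of a type and less RNA per cell cannot be told apart.

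Immediate early genes are transcribed within minutes of a signal, without new protein synthesis, from promoters on which SRF, its ETS partners and CREB already sit. MAP kinase cascades switch them on, and their short-lived mRNAs and proteins switch them off. Many encode transcription factors, among them the FOS and JUN subunits of AP-1, and others, such as the phosphatase DUSP1, turn the same kinases off again. In the gut they respond to injury, growth factors, bacterial products and cytokines, and they also respond to the handling of tissue.

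Values are normalized counts, that is reads per gene that the authors divided by 1 size factor per library. *Nedd4l* itself stood at 476, 942 and 566 in knockout replicates 1, 2 and 3, and at 1241, 1271 and 1266 in control replicates 1, 2 and 3. The genotypes did not overlap, and knockout replicate 2 was the closest of its group to the control libraries. Over all tested genes that library also had a higher mean correlation with the control libraries (0.977) than with its own group (0.966). In units of the smallest value of each library, which may stand for 1 read, totals lay between 14914367 and 17547270. The 9 epithelial markers, *Slc26a3*, *Krt8*, *Epcam* and *Vil1* among them, were present in every library, as the tissue label says, with summed normalized counts of 183363 to 230064 in knockout and 207940 to 229062 in control libraries. *Slc26a3*, a chloride exchanger of surface colonocytes, had the smallest p among them (log2 fold change −0.69, limma adjusted p = 0.384).

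Of the 10 immediate early genes, 7 were higher and 3 lower in knockout mice, where 50.2% and 49.8% of all tested genes were, and 0 passed an adjusted p of 0.05 in limma. Across all 16246 tested genes 0 passed it as well, with 1122 higher and 1151 lower at an unadjusted p under 0.05. At that unadjusted level *Nr4a1*, *Dusp1* and *Jun* were higher and *Fosb* was lower, which is 3 of 10 higher against 6.91% of all tested genes and 1 of 10 lower against 7.08%. All 3 knockout libraries lay above all 3 control libraries for *Nr4a1*, *Jun*, *Egr1* and *Ier3*, 4 of 10 against 10.5% of tested genes, and below them for *Fosb*, 1 of 10 against 10.9%. The median log2 fold change of the 10 genes was 0.21, beside 0.00 for all tested genes, and it was 0.32 without knockout replicate 3 and 0.13 with array weights, which give less weight to libraries far from their group. With 3 libraries a group the smallest 2-sided p of an exact permutation test is 0.1. Any gene with separate groups reaches it, so for these 5 genes it only restates the lack of overlap. Leaving out 1 library moved the count of higher genes at the unadjusted level from 3 to 1 (without knockout replicate 1, control replicate 2 or control replicate 3), to 2 (without control replicate 1) or to 4 (without knockout replicate 3). Without knockout replicate 2 the count stayed at 3, but the genes were *Egr1*, *Ier3* and *Nr4a1*. In these fits 4.91% to 8.94% of all tested genes were higher at that level. Which of the mice came from the same litter or sequencing run is not given in the sources used here.

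**Figure D1:**
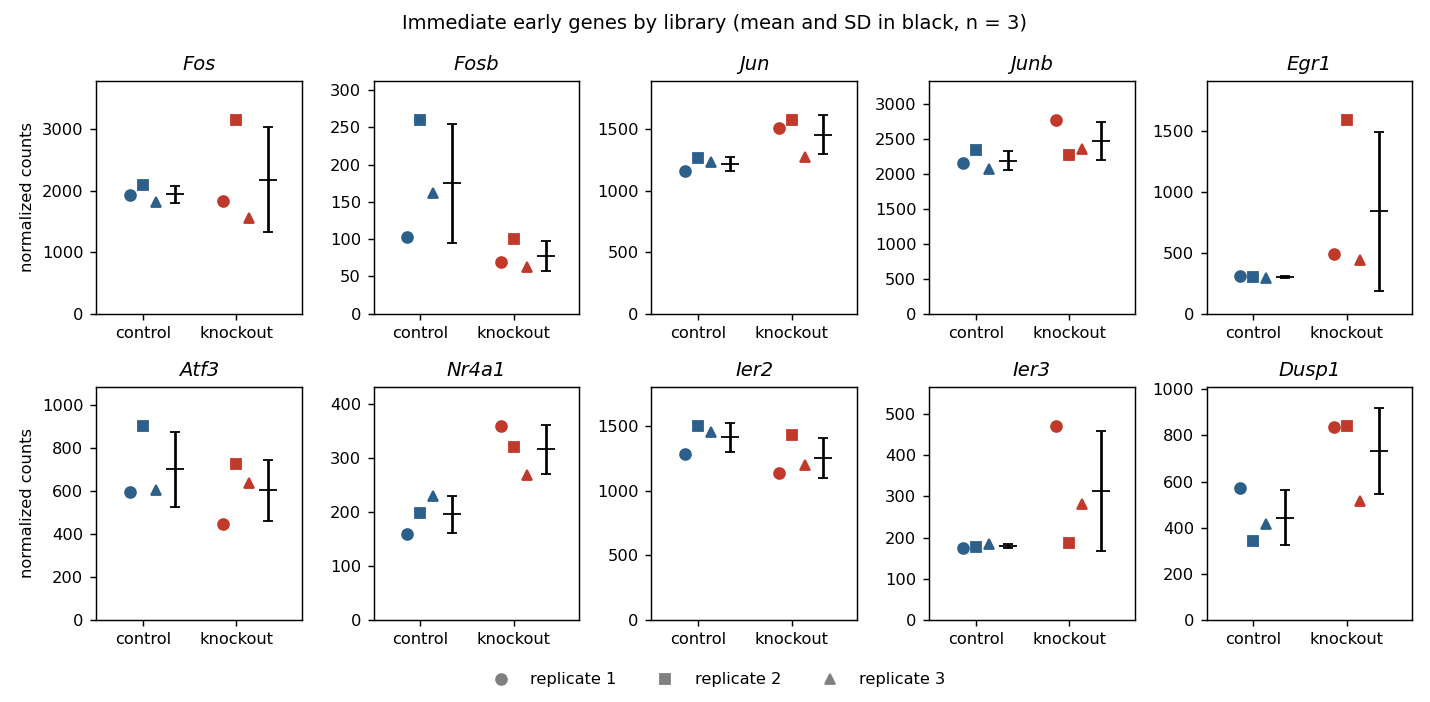
Normalized counts of the 10 immediate early genes in each library, control on the left and knockout on the right of each panel, with the mean and SD (n = 3) in black. *Nr4a1*, *Jun*, *Egr1* and *Ier3* have all knockout libraries above the control libraries, *Fosb* has all below, and *Egr1* and *Fos* are highest in knockout replicate 2.

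Promoter sequence of these genes was read from RefSeq on GRCm38.p6, as the 250 bases before 1 RefSeq transcript start of each gene. For *Nr4a1* and *Atf3* that start lies well inside the gene span given below. Their windows are those of an internal start and not of the outermost one. For *Dusp1*, *Fosb* and *Ier3* the start lies a short way inside the span, so their windows run into it. Of the 10 genes 8 were matched, each by 1 window: *Atf3*, *Jun*, *Fosb*, *Junb*, *Fos*, *Nr4a1*, *Dusp1* and *Ier3*. The core of the cyclic AMP response element, TGACG on either strand, was in 6 of these 8 windows and in 17.8% of all 32851 windows. This core was added to the search after the windows had been seen. Stretches of 4 windows are shown because they belong to the 3 genes that differed at the unadjusted level and held the core, *Fosb*, *Nr4a1* and *Dusp1*, and to *Fos*, the relative of *Fosb* that did not share its difference. Capitals mark TGACG, its reverse complement CGTCA and the TATA box TATAAA, and each sequence runs 5′ to 3′ on the strand of the gene. The *Fosb* and *Dusp1* stretches end at −11 and −51 from the start site, which leaves out the bases inside the gene span. The stretches lie at chr12:85473740-85473889 on the plus strand (*Fos*), chr7:19310056-19310195 on the minus strand (*Fosb*), chr15:101266746-101266845 on the plus strand (*Nr4a1*) and chr17:26508523-26508672 on the minus strand (*Dusp1*), and none overlaps an annotated exon of GENCODE M21.
Fos: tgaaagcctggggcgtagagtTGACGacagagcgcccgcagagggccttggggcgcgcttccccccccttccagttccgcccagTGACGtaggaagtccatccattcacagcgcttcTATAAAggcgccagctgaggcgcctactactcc
Fosb: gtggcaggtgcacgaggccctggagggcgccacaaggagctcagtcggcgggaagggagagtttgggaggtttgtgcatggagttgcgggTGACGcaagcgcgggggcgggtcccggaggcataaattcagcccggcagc
Nr4a1: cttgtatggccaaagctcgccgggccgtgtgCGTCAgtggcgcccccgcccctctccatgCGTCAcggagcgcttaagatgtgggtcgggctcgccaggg
Dusp1: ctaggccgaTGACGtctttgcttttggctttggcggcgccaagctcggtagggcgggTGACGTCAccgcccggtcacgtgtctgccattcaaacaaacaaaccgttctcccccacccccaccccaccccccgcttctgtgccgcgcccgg
*Dusp1* alone among the 8 windows held the full palindrome TGACGTCA, which starts 143 bases before the start site and contains 2 overlapping cores, and 1.55% of all windows hold it. In *Fos* the cores start 129 and 66 bases before the start site and the TATA box 33 bases before it. In *Fosb* the core starts 60 bases before the start site, and in *Nr4a1* the cores start 233, 213, 69 and 40 bases before it, of which the last 2 are shown. Other cores were in *Junb*, 106 bases before the start site, and in *Atf3*, 7 bases before it. The CArG box that SRF binds and the AP-1 site TGANTCA, searched on both strands, were in 0 of the 8 windows, and in 1.47% and 6.75% of all windows. A match, or the lack of one, in so short a window is a description of the letters only. At such shares 0 of 8 windows is the likely count for any genes. Bases further upstream were not searched, and *Egr1* and *Ier2* had no window. The count of 0 therefore cannot show that these genes lack such sites.

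Of the Fos genes, *Fosb* was lower in knockout libraries at the unadjusted level and *Fos* was not. *Fosb* (ENSMUSG00000003545, chromosome 7 of GRCm38 from 19302696 to 19310051, minus strand) encodes a FOS subunit that pairs with JUN proteins. Its normalized counts were 69.0, 101 and 62.9 in knockout replicates 1, 2 and 3 and 103, 260 and 162 in control replicates 1, 2 and 3. Every knockout library was below every control library, although knockout replicate 2 and control replicate 1 differed by only a few counts. *Fosb* averaged 77.5 ± 20.2 in knockout and 175 ± 79.5 in control libraries (SD, n = 3 each). Its log2 fold change was −1.09 (standard error 0.35, 95% interval −1.90 to −0.28; limma adjusted p = 0.284, unadjusted 0.0149). Without control replicate 2, the highest library, the log2 fold change was −0.76, and without knockout replicate 3 the unadjusted p was 0.0544.

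*Fos* (ENSMUSG00000021250, chromosome 12 from 85473890 to 85477273, plus strand) encodes the founding FOS subunit of AP-1. It stood at 1831, 3154 and 1554 normalized counts in knockout replicates 1, 2 and 3 and at 1928, 2086 and 1810 in control replicates 1, 2 and 3. Knockout replicate 2 was the highest and knockout replicate 3 the lowest of the 6 libraries, so the genotypes overlapped. *Fos* averaged 2180 ± 855 in knockout and 1941 ± 138 in control libraries (SD, n = 3 each), and its log2 fold change was 0.10 (standard error 0.26, 95% interval −0.52 to 0.72; limma adjusted p = 0.880). The direction rested on knockout replicate 2, without which the log2 fold change was −0.20. Per kilobase of gene length, *Fosb* made up 1.40%, 1.19% and 1.502% of the sum of *Fos* and *Fosb* in the knockout libraries and 1.97%, 4.48% and 3.26% in the control libraries. Every knockout library had a lower share than every control library (exact permutation test, 2-sided p = 0.1, the smallest it allows). The means were 1.36% ± 0.161 in knockout and 3.24% ± 1.26 in control libraries (SD, n = 3 each). *Fosb* alone already had separate groups and *Fos* was far higher, so this share is no second test of *Fosb*.

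The Jun genes, whose products bind DNA as pairs with each other or with FOS proteins, differed less between libraries. *Jun* (ENSMUSG00000052684, chromosome 4 from 95049034 to 95052222, minus strand) had 1509, 1577 and 1275 normalized counts in knockout replicates 1, 2 and 3 and 1156, 1267 and 1236 in control replicates 1, 2 and 3. The groups were separate, with knockout replicate 3 just above control replicate 2. *Jun* averaged 1453 ± 158 against 1220 ± 56.9 (SD, n = 3 each). Its log2 fold change was 0.25 (standard error 0.10, 95% interval 0.02 to 0.48; limma adjusted p = 0.337, unadjusted 0.0379), and the unadjusted p was above 0.05 without any 1 library other than knockout replicate 3.

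*Junb* (ENSMUSG00000052837, chromosome 8 from 84974484 to 84978718, minus strand), which often restrains proliferation where *Jun* promotes it, stood at 2773, 2267 and 2359 normalized counts in the knockout and 2153, 2335 and 2074 in the control libraries. The groups overlapped through knockout replicate 2, and the log2 fold change was 0.17 (standard error 0.10, 95% interval −0.06 to 0.40; limma adjusted p = 0.458). Without knockout replicate 1 it was 0.08. *Jun* made up 29.9% ± 3.05 (SD, n = 3) of the sum of *Jun* and *Junb* per kilobase in knockout and 28.7% ± 1.18 (SD, n = 3) in control libraries (exact permutation test, 2-sided p = 0.6). The exons of *Jun* and *Junb* share 232 of 3189 and 173 of 2301 bases with the genes *Junos* and *Prdx2* on the opposite strand. Whether counting used strand is not given in the sources used here, so reads in these bases cannot be assigned.

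*Atf3* (ENSMUSG00000026628, chromosome 1 from 191170296 to 191218039, minus strand) encodes a stress-induced partner and repressor within the AP-1 and CREB families. It had 447, 723 and 634 normalized counts in knockout and 595, 901 and 605 in control replicates 1, 2 and 3. Replicate 2 was the highest library in each genotype and the groups overlapped. The log2 fold change was −0.22 (standard error 0.23, 95% interval −0.76 to 0.32; limma adjusted p = 0.675), and it was −0.02 without knockout replicate 1, −0.03 without control replicate 2 and −0.37 without knockout replicate 2.

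*Nr4a1* (ENSMUSG00000023034, chromosome 15 from 101254269 to 101274795, plus strand) encodes the orphan nuclear receptor NUR77, which acts in T cell receptor signaling, macrophages and cell death. It had the smallest p of the 10 genes. Its normalized counts were 359, 321 and 269 in knockout replicates 1, 2 and 3 and 160, 198 and 229 in control replicates 1, 2 and 3, so that each knockout library exceeded each control library. *Nr4a1* averaged 316 ± 45.3 in knockout and 196 ± 34.4 in control libraries (SD, n = 3 each), a 1.62-fold difference. Its log2 fold change was 0.70 (standard error 0.18, 95% interval 0.29 to 1.11; limma adjusted p = 0.218, unadjusted 0.00442). The value was between 0.56 and 0.82 whichever library was left out, with an unadjusted p of at most 0.0162 in all 13 alternatives run.

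*Egr1* (ENSMUSG00000038418, chromosome 18 from 34859823 to 34864984, plus strand) encodes a zinc finger factor that growth factors and injury induce through SRF. It had the largest difference of the 10 and the largest spread. Normalized counts were 487, 1592 and 444 in knockout replicates 1, 2 and 3, against 311, 300 and 291 in control replicates 1, 2 and 3. Knockout replicate 2 stood far above the other 5 libraries, and the remaining knockout libraries still lay above every control library. The log2 fold change was 1.22 (standard error 0.50, 95% interval −0.02 to 2.46; limma adjusted p = 0.361, unadjusted 0.0525). Without knockout replicate 2 it was 0.63 (standard error 0.12, limma adjusted p = 0.0691). *Egr1* made up 12.2%, 20.9% and 13.0% of the sum of *Egr1* and *Fos* per kilobase in knockout libraries. In control libraries it made up 7.80%, 7.00% and 7.77%, with separate groups (exact permutation test, 2-sided p = 0.1, the smallest it allows). *Egr1* alone already had separate groups, so this share is no second test of it.

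*Ier3* (ENSMUSG00000003541, chromosome 17 from 35821684 to 35822923, plus strand), also called IEX-1, encodes a small stress protein that modulates NF-κB and ERK signaling and cell survival. Its normalized counts were 472, 186 and 282 in knockout replicates 1, 2 and 3, and 175, 177 and 185 in the control libraries. Knockout replicate 2 was level with the control libraries, being higher than control replicate 3 by about 1 count, while knockout replicates 1 and 3 stood well above them. The log2 fold change was 0.70 (standard error 0.31, 95% interval −0.03 to 1.43; limma adjusted p = 0.365, unadjusted 0.0571). It was 0.35 without knockout replicate 1 and 1.02 without knockout replicate 2 (limma adjusted p = 0.0886).

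*Ier2* (ENSMUSG00000053560, chromosome 8 from 84661331 to 84662852, minus strand), a rapidly induced nuclear regulator, stood at 1139, 1429 and 1197 normalized counts in knockout and 1285, 1502 and 1451 in control replicates 1, 2 and 3. Knockout replicate 2 was above control replicate 1, so the groups overlapped. The log2 fold change was −0.17 (standard error 0.11, 95% interval −0.43 to 0.08; limma adjusted p = 0.489). It was −0.11 without knockout replicate 1 and −0.27 without knockout replicate 2. In the latter case the genotypes did not overlap, as was so for 19.1% of all tested genes on the lower side.

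*Dusp1* (ENSMUSG00000024190, chromosome 17 from 26505590 to 26508519, minus strand) encodes the phosphatase MKP-1, which dephosphorylates p38 and JNK and closes the loop on the kinases that induce these genes. It had 836, 841 and 517 normalized counts in knockout replicates 1, 2 and 3 and 574, 342 and 414 in control replicates 1, 2 and 3. Knockout replicates 1 and 2 exceeded all control libraries, while knockout replicate 3 was below control replicate 1. *Dusp1* averaged 731 ± 186 in knockout and 443 ± 119 in control libraries (SD, n = 3 each), a 1.65-fold difference. Its log2 fold change was 0.72 (standard error 0.26, 95% interval 0.11 to 1.33; limma adjusted p = 0.316, unadjusted 0.0278). With array weights it was 0.38 with an unadjusted p of 0.153, and *Jun* likewise had a log2 fold change of 0.12 and an unadjusted p of 0.220.

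**Figure D2:**
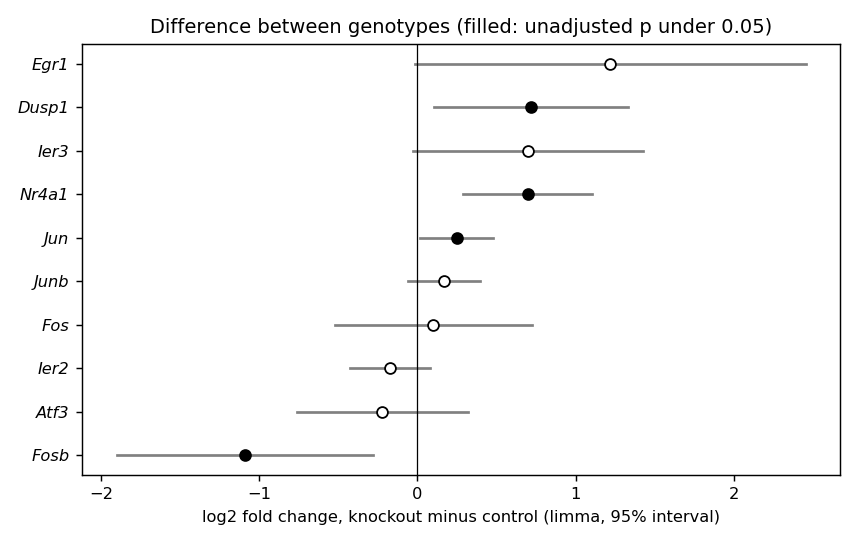
Log2 fold change (knockout minus control) of each immediate early gene with its 95% interval from limma, where filled points have an unadjusted p under 0.05. *Egr1* has the highest value (1.22) and the widest interval, *Fosb* the lowest (−1.09), and 0 of 10 genes passed an adjusted p of 0.05.

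Levels per length put the genes in order. In control libraries *Junb* averaged 951 ± 58.3 normalized counts per kilobase, *Ier2* 928 ± 74.5 and *Fos* 825 ± 58.9 (SD, n = 3 each), and in this order neighbouring genes overlapped between libraries. *Jun* (382 ± 17.9) and *Atf3* (325 ± 80.7) followed and overlapped each other, then *Dusp1* (164 ± 44.0) and *Ier3* (158 ± 4.58), then *Egr1* (67.0 ± 2.29) and *Nr4a1* (55.7 ± 9.80), which overlapped as well. *Fosb* was lowest at 28.0 ± 12.7 normalized counts per kilobase, with each control library below each control value of *Nr4a1*. The steps from *Fos* to *Jun*, from *Atf3* to *Dusp1* and from *Ier3* to *Egr1* were free of overlap between control libraries. In knockout libraries *Fosb* was again lowest (12.4 ± 3.24 per kilobase) and *Junb* had the highest mean (1072 ± 117).

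**Figure D3:**
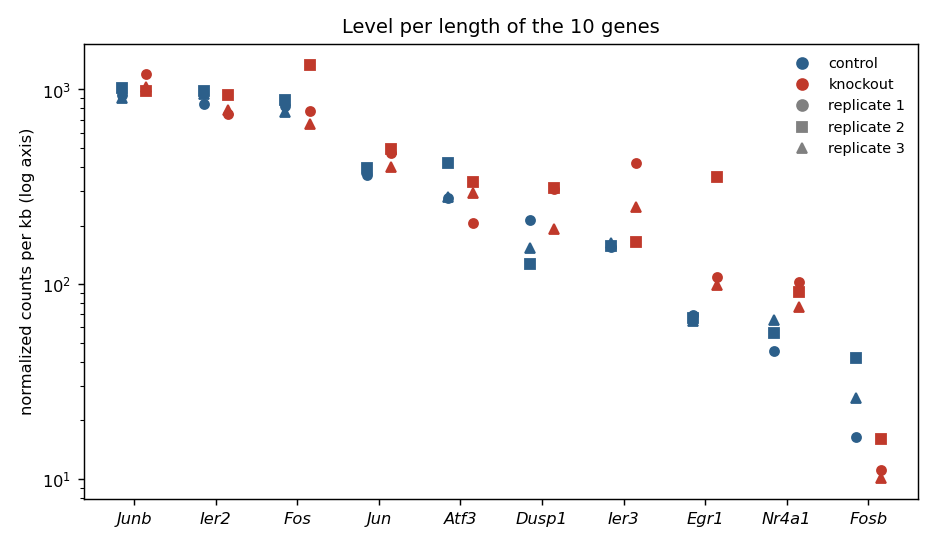
Normalized counts per kilobase of gene length (log axis) of the 10 genes in each library, ordered by the control mean. Levels run from *Junb*, *Ier2* and *Fos* near the top to *Fosb*, which lies below all other genes in both genotypes.

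The spread between libraries of a genotype differed widely among the genes. The residual SD of the log2 values was above that of 93.5% of all tested genes for *Egr1*, 86.2% for *Fosb* and 82.6% for *Ier3*, but of only 26.8% for *Jun* and 27.3% for *Junb*. *Egr1* and *Ier3* varied 3.59-fold and 2.54-fold among knockout libraries and only 1.07-fold and 1.06-fold among control libraries. *Fosb* was the reverse, with 1.60-fold among knockout and 2.53-fold among control libraries.

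Libraries took similar ranks in many of the genes, though not in all. Knockout replicate 2 was the highest of its group for 7 of the 10 genes and the lowest for 2. Control replicate 2 was the highest of its group for 6 and the lowest for 1. The share of all tested genes with these ranks was not computed. Knockout replicate 2 also had the largest sum of normalized counts of the 6 libraries. Averaged over the 10 genes, the log2 difference from the control mean was 0.23, 0.47 and 0.01 in knockout replicates 1, 2 and 3 and −0.10, 0.11 and −0.01 in control replicates 1, 2 and 3, so the genotypes overlapped. Without *Egr1* the values were 0.18, 0.25 and −0.05 in knockout libraries and −0.11, 0.12 and −0.01 in control libraries. The same libraries stood out for heat shock genes, which respond to misfolded protein, heat and tissue handling. Of 13 such genes, 12 were highest in knockout replicate 2 within the knockout group and 13 in control replicate 2 within the control group. For these ranks, too, the share of all tested genes was not computed. *Hspa1b*, an inducible HSP70 gene chosen here after its values were seen, had 348, 2964 and 292 normalized counts in knockout and 150, 1176 and 180 in control replicates 1, 2 and 3. The heat shock list as a whole had 0 genes higher and 1 lower (*Hspd1*) at an unadjusted p under 0.05. Of all tested genes 6.91% were higher and 7.08% lower at that level. The list's median log2 fold change was −0.22. The part of these libraries' state in the values of the immediate early genes was not tested.

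Of 14 paralogs of the 10 genes, chosen by family and not by the rule for named genes, 13 were tested and 10 were higher (50.2% of all tested genes were), 1 of them at an unadjusted p under 0.05 (6.91%). Without overlap 3 were higher and 1 lower, against 10.5% and 10.9% of all tested genes. That gene was *Egr2*, a relative of *Egr1*, with 31.6, 40.9 and 29.9 normalized counts in knockout and 7.90, 16.2 and 13.98 in control replicates 1, 2 and 3, so its log2 fold change was 1.40 (standard error 0.36; limma adjusted p = 0.218). Its groups were separate, and knockout replicate 2 was again the highest library, though not apart from the others as for *Egr1*. *Nr4a2* had 149, 140 and 121 against 85.9, 116 and 118 normalized counts, also without overlap, with a log2 fold change of 0.36 (limma adjusted p = 0.428). *Ier5*, a relative of *Ier2*, was the lower gene, with 971, 930 and 948 against 991, 1176 and 1001 normalized counts and a log2 fold change of −0.15 (limma adjusted p = 0.483). The AP-1 genes *Fosl2* and *Jund* were level, at log2 fold changes of 0.07 and −0.08.

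A wider list of 42 other immediate early genes had 41 tested, of which 31 were higher, where 50.2% of all tested genes were. It includes the tested *Egr*, *Nr4a*, *Ier* and *Dusp* paralogs above, so these genes are counted again. At an unadjusted p under 0.05, 10 were higher and 1 lower, against 6.91% and 7.08% of all tested genes, and 13 were higher and 2 lower without overlap, against 10.5% and 10.9%. The median log2 fold change was 0.27. This list's mean log2 difference from the control mean was 0.31, 0.28 and 0.17 in the knockout and −0.06, 0.10 and −0.04 in the control libraries, with separate groups. Beside *Egr2*, the smallest p belonged to *Sik1*, a kinase that restrains CREB coactivators, at 395 ± 48.1 against 269 ± 24.5 normalized counts (SD, n = 3; log2 fold change 0.55, limma adjusted p = 0.215). *Per1*, a clock gene that CREB also induces, was at 701 ± 75.0 against 530 ± 36.6 (log2 fold change 0.40, limma adjusted p = 0.249). *Trib1*, a pseudokinase adaptor, was the lower gene, with a log2 fold change of −0.51 (limma adjusted p = 0.256).

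Among 17 tested AP-1 family partners 2 were higher and 0 lower at an unadjusted p under 0.05. Of all tested genes 6.91% were higher and 7.08% lower at that level. The list's median log2 fold change was 0.12, and it holds the paralogs *Fosl1*, *Fosl2* and *Jund* again. *Batf2*, a partner of JUN proteins in myeloid cells, had 1201, 842 and 1018 normalized counts in knockout and 577, 761 and 567 in control libraries (log2 fold change 0.68, limma adjusted p = 0.211). *Jdp2*, a repressor that pairs with JUN, had 139, 73.0 and 81.5 against 55.3, 36.9 and 57.9 (0.92, limma adjusted p = 0.297). Both had separate groups. The 35 kinases and factors upstream of immediate early genes had 1 higher and 1 lower gene at that level, beside the same shares. Among them were RAS, RAF, MAP kinases, SRF and CREB, and their median log2 fold change was 0.03. The higher gene was *Nras* (0.34, limma adjusted p = 0.305), and the lower gene *Crtc1*, a CREB coactivator (−0.36, limma adjusted p = 0.282).

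Of 18 tested genes that AP-1 is known to regulate, 16 were higher, where 50.2% of all tested genes were. At an unadjusted p under 0.05, 3 were higher and 0 lower, against 6.91% and 7.08% of all tested genes. The median log2 fold change of the list was 1.09. *Il11* and *Spp1* averaged 6.93 and 3.69 in control libraries and passed the filter mean of 10 only through their knockout values. The filter thus fixed their direction. The list was also chosen with earlier results of these data known, so its counts are a description and no test. *Ptgs2*, which encodes the inducible cyclooxygenase, was at 362, 203 and 292 normalized counts in knockout and 107, 119 and 60.9 in control libraries. *Il11*, a cytokine of stromal cells, was at 317, 16.6 and 166 against 7.90, 9.90 and 3.00, and *Mmp9*, a gelatinase, at 533, 38.7 and 95.9 against 19.8, 17.1 and 14.98. In all 3 genes knockout replicate 1 was highest and knockout replicate 2 lowest of its group, which is not the order of *Egr1* or *Fos*. Of the 10 immediate early genes, *Ier3* and *Junb* had the order of these genes.

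Neutrophil, fibroblast and endothelial markers were, on average, also highest in knockout replicate 1 and lowest in knockout replicate 2 of that group, while mast cell and macrophage markers were highest in knockout replicate 2. For the 6 neutrophil markers, 5 were higher in knockout libraries, where 50.2% of all tested genes were. *Cxcr2* and *Retnlg* averaged 0.90 and 9.51 in control libraries and passed the filter mean of 10 only through their knockout values. The filter thus fixed their direction, and both are part of the list mean. The mean log2 difference of the list from the control mean was 5.04, 0.64 and 2.69 in knockout replicates 1, 2 and 3. In the control libraries it was 0.07, −0.07 and 0.00. Summed normalized counts of these markers were 2983 to 9235 in knockout and 2967 to 3233 in control libraries. *Ly6g* made up nearly all of the sum in the control libraries. *Ly6g* was the 1 marker that was lower (log2 fold change −0.27), and *Cxcr2* was listed at 0 in control replicates 1 and 3. All 5 fibroblast markers were higher (50.2% of all tested genes were), and none of the 5 was at 0 in any library. Their summed counts were 20696 to 42199 in knockout and 10418 to 17708 in control libraries. Smooth muscle markers summed to 4867 to 9098 in knockout and 4107 to 16644 in control libraries, with control replicate 2 highest and knockout replicate 1 lowest of its group. The 4 mast cell markers had a mean log2 difference from the control mean of 0.31, 2.28 and 1.53 in knockout replicates 1, 2 and 3 and 0.46, −0.16 and −0.30 in the control libraries, highest in knockout replicate 2 as *Egr1* and *Fos* were, with 2 of 4 higher at an unadjusted p under 0.05 (6.91% of all tested genes). *Kit*, the receptor of mast cells and of interstitial cells of Cajal, went the other way, with 283, 645 and 531 normalized counts in knockout and 739, 724 and 703 in control replicates 1, 2 and 3, every knockout library below every control library (log2 fold change −0.65, limma adjusted p = 0.382). The mast cell markers *Mcpt4* and *Cpa3* averaged 3.54 and 8.01 in control libraries and likewise passed the filter only through their knockout values. Their direction was thus fixed by the filter, and *Mcpt4* is 1 of the 2 higher mast cell markers. At an unadjusted p under 0.05, 1 of 4 endothelial and 1 of 5 macrophage markers were higher, against 6.91% of all tested genes. Of the T cell and B cell markers 0 of 4 and 0 of 3 were. The part of these cell types in the values of *Ier3*, *Nr4a1* or the other immediate early genes was not tested.

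**Figure D4:**
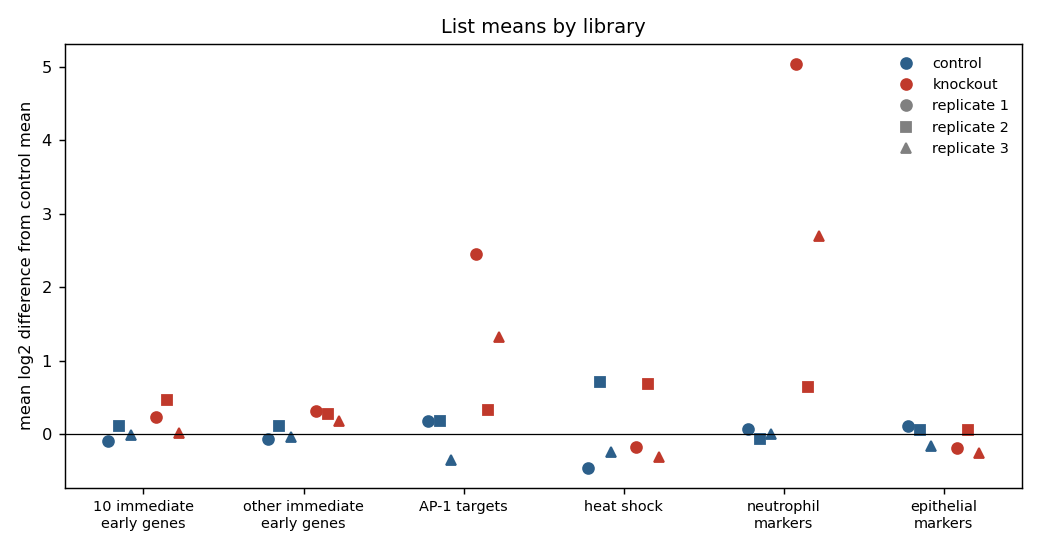
Mean log2 difference from the control mean of each gene list in each library, with replicate number given by the marker shape. Heat shock genes are highest in replicate 2 of both genotypes (0.70 in control, 0.69 in knockout), the 10 immediate early genes are highest in knockout replicate 2 (0.47), and AP-1 targets and neutrophil markers are highest in knockout replicate 1.

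The 5 genes in no list whose profile over the 6 libraries was nearest to the mean profile of the 10 immediate early genes were *Tmem104*, *Zfp46*, *Tmed10-ps*, *Svbp* and *Swt1*. Their root mean square distance from that profile, on centred log2 values, was 0.0482 to 0.0615. *Tmem104* had 293, 321 and 233 normalized counts in knockout and 220, 269 and 246 in control replicates 1, 2 and 3.

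Most of the 10 genes had features in common that their naming did not use, and none of these features held for all 10. The median span of the 10 genes was 3809.5 bases, against 24148 over 13922 tested protein-coding genes. Of the 10 genes, 9 were shorter than the latter. *Atf3*, at 47744 bases, was the exception. The pentamer ATTTA, part of the AU-rich elements that mark short-lived mRNAs, was denser than the median in the longest annotated 3′ untranslated region of 8 of 10 genes, at a median of 3.67 per kilobase against 1.23 over 13557 tested protein-coding genes. By number of copies the difference was smaller, with a median of 3 against 2 and 6 of 10 genes above the latter. *Ier3* had 5 copies in 616 bases and *Dusp1* 4 in 693 bases, while *Fosb* had 1 in 2305 bases and *Ier2* had 0 in 758 bases.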

How the data were processed

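Colonic RNA of 3 Nedd4l fl/fl Villin Cre and 3 Nedd4l fl/fl mice was measured by RNA sequencing. The submitters' processing notes name HISAT2 2.0.5 and featureCounts 1.5.0-p3. They list a human build, but 27164 of 27202 gene identifiers are in GENCODE M21 on mouse GRCm38, 97.2% of these with identical coordinates. The authors deposited normalized counts, a signal in which each library's reads per gene were scaled by a single factor, and all values were whole multiples (within 0.01) of the smallest value of their library. Columns with the authors' group means, fold changes and p-values were not used. Values were transformed to log2(value + 1), so fold changes of low genes are understated, and genes with a mean of at least 10 (16246) were fitted with limma 3.58.1 (lmFit, eBayes with trend and robust) under R 4.3.3, with Benjamini-Hochberg adjustment over all tested genes. Intervals cover 95%. Levels per kilobase used the table's gene length. Python 3.11.15 and matplotlib 3.10.9 served for summaries and plots. The fit was tested on simulated data.

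The 10 genes and all lists were chosen with earlier results of these data known. Named were the 10 genes, *Nedd4l*, up to 4 genes of each list with the smallest p, and the 5 genes in no list (mean of at least 50) with the nearest profiles. Paralogs, *Hspa1b* and *Kit* were added after values had been seen. Replicate numbers were not used to pair the libraries in the main fit, since the labels tie them to no litter or batch. P-values measure only the spread between these libraries. The count tests planned on reads recovered from the steps were not run. Alternatives were other pseudocounts, filters, scaling, library weights, a replicate block and leaving out each library.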

Additional observations from a re-analysis of the deposited data

How the results depend on the processing

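Over 13 alternatives, 128 of 130 values of the 10 genes kept their direction and stayed above an adjusted p of 0.05 (range 0.0506 to 0.976 from limma). The exceptions were *Fos* with array weights (−0.18) and without knockout replicate 2 (−0.20), with a range of −0.20 to 0.31 when 1 library was left out. Genes passing an adjusted p of 0.05 numbered 0 higher and 0 lower, 7 higher and 23 lower with no filter on low values, 262 higher and 369 lower with array weights, and 0 to 70 higher and 0 to 52 lower when 1 library was left out. At an unadjusted p under 0.05, array weights left 2 of the 10 genes higher (*Nr4a1* and *Ier3*) and 2 lower (*Fosb* and *Ier2*). In that fit 12.8% of all tested genes were higher and 13.1% lower. When 1 library was left out, 1 to 4 were higher and 0 to 2 lower, where 4.91% to 8.94% and 4.53% to 8.77% of all tested genes were. Without overlap 4 to 5 were higher and 1 to 2 lower, where 14.6% to 18.5% and 14.4% to 19.1% of all tested genes were, so non-overlap was more common throughout than with all libraries. With all libraries and quantile normalization, 3 of the 10 were higher and 1 lower without overlap. In that fit 9.18% and 12.2% of all tested genes were. With array weights *Egr1* was at 0.77 and *Atf3* at −0.09. The causes were not tested. Same-numbered libraries of the 2 genotypes correlated at −0.03, −0.09 and −0.06 in their deviations from the group means over all tested genes. Such a correlation cannot decide whether smaller sets of genes share a litter, run or handling. Of 13 heat shock genes, 12 were highest in knockout replicate 2 and 13 in control replicate 2 within their groups. The share of all tested genes with these ranks was not computed. Whether a replicate number marks anything shared was not tested. With the replicate block 4 of the 10 genes were higher and 1 lower at the unadjusted level, against 3 and 1 without it. In that fit 7.41% of all tested genes were higher and 6.48% lower. The block changed no other count by more than 1.5 times. Standard errors fell with the block from 0.50 to 0.38 for *Egr1*, 0.35 to 0.23 for *Fosb* and 0.23 to 0.12 for *Atf3*. Those of *Nr4a1* (0.18 to 0.20) and *Junb* (0.099 to 0.104) rose. The planned count tests on recovered reads (quasi-likelihood with 2 scalings, and 1 other tool) were not run. Whole tissue and 3 libraries a group limit what differences can be detected, and intervals measure only the spread between libraries.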
